A study of Mus musculus with 60 samples.

Results

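Liver RNA of mice given 56Fe ions was set directly against that of mice given 28Si ions, 2 months (60 days) after exposure. The comparison uses 6 of the 60 libraries of the study, namely the 3 of the 56Fe group and the 3 of the 28Si group at that time. All 6 mice were male C3H/HeNCrl, an inbred strain prone to liver tumours, were 8 to 10 weeks old when irradiated, and received 0.2 Gy to the whole body. The beams were 56Fe at 600 MeV per nucleon and 28Si at 350 MeV per nucleon. The 3 non-irradiated control mice and the 3 mice given 0.2 Gy of 16O at 1000 MeV per nucleon of the same time served to estimate the spread and are shown beside the pair. Each library came from the left liver lobe of a separate mouse, sequenced after depletion of ribosomal RNA. The values are RPKM, that is reads scaled to the length of the transcript and to library depth, summed over the transcripts of a gene. Depth, recovered from the steps between low values, was 14775717 to 24781298 read pairs in the 6 libraries. Every 56Fe library carries the letter E and every 28Si library the letter A in its label, and what the letters mark is not given in the sources used here, so letter and ion cannot be told apart. The labels also hold an S number, which was 19, 35 and 51 in 56Fe and 43, 44 and 45 in 28Si. What it marks is not given either.

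56Fe and 28Si are heavy charged particles of galactic cosmic rays that deposit dense tracks of energy in tissue, and the study asked how such ions differ in their effects on the liver. Hepatocytes make bile acids from cholesterol, store glycogen, make and burn fatty acids, and secrete plasma and urinary proteins. Bile acids limit their own synthesis through the nuclear receptor FXR, which induces the repressor SHP (gene Nr0b2), and SHP in turn represses Cyp7a1, the gene of the rate-limiting enzyme. Interferons induce large sets of genes, among them families of GTPases that act against pathogens inside cells. Growth hormone pulses in male mice sustain the major urinary proteins (Mup genes) and induce Socs2, an inhibitor of growth hormone receptor signalling.

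Of 11510 genes tested with limma, 34 (0.295%) passed both thresholds, an adjusted p no higher than 0.05 and a 2-fold or larger difference. In 56Fe, 19 of them (0.165%) were higher and 15 (0.130%) lower than in 28Si. Leaving out a library changed this number to 18 without 56Fe replicate 1, 13 without 56Fe replicate 3 and 18 without 28Si replicate 2. By the adjusted p alone there were 135 genes (1.17%), with 91 (0.791%) higher and 44 (0.382%) lower in 56Fe, and this larger number fell to 17 to 68 when any of the 6 libraries was left out. Over all genes tested, 5762 (50.1%) were higher in 56Fe, and the 3 libraries of each ion did not overlap in 2967 (25.8%). There was no overlap in any of the 135 genes either, so the separations described below add nothing to their p-values. Log2 differences below are 56Fe minus 28Si on the log2(RPKM + 0.1) scale with their standard error (SE), and adjusted p-values are from limma with Benjamini-Hochberg adjustment over all genes tested. Positions are of GRCm38.

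**Figure D1:**
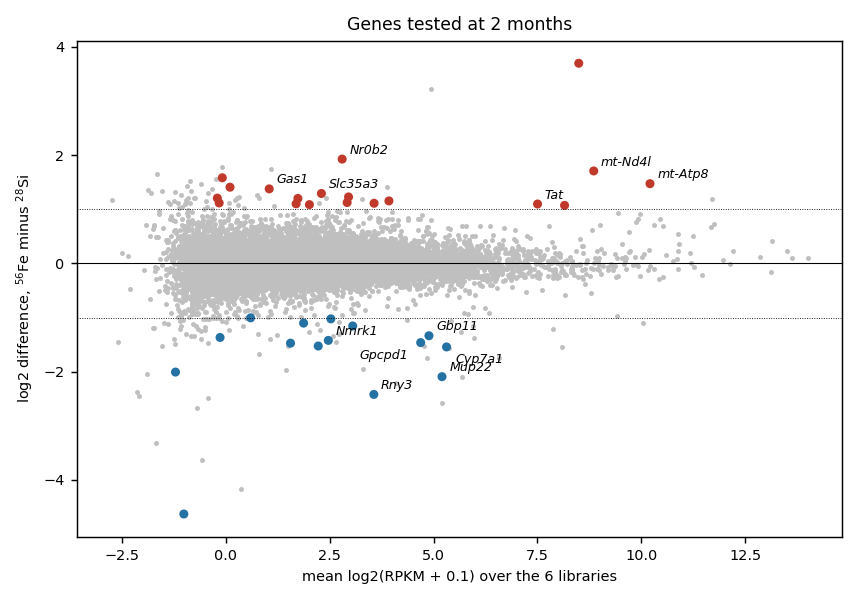
Mean level over the 6 libraries, as log2(RPKM + 0.1), on the x axis against the log2 difference of 56Fe minus 28Si on the y axis for the 11510 genes tested; red and blue points are the 19 higher and 15 lower genes past both thresholds, grey points all others, and dotted lines mark a fold of 2. Nr0b2, mt-Nd4l and mt-Atp8 lie above the grey cloud and Mup22, Cyp7a1, Gpcpd1 and Rny3 below it.

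Nr0b2 had the largest rise among the genes named by rule, and Cyp7a1 was among those with the largest fall. Nr0b2 (ENSMUSG00000037583, chromosome 4, 133553376 to 133556536, plus strand) encodes SHP, a nuclear receptor that lacks a DNA-binding domain and represses other receptors. The 250 bases before and 50 after its start are shown because SHP is a known target of the receptor LRH-1 (Nr5a2), whose motif CAAGGNCA is in capitals, as is the STAT motif TTCNNNGAA (RefSeq, GRCm38.p6, chr4:133553126-133553425, plus strand).

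Nr0b2: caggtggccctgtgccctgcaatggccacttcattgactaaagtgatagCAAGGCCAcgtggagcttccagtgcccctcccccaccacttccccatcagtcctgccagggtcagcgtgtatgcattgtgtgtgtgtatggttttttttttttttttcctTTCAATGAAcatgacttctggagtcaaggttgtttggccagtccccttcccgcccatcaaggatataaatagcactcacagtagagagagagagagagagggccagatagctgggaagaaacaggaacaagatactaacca

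Both strands were searched. The capitals mark CAAGGCCA at bases -201 to -194 and TTCAATGAA at bases -91 to -83 from the start. Of 32851 promoter windows of this length, 6.71% held the LRH-1 motif and 8.30% the STAT motif, and a match is a description of letters only. Cyp7a1 had no window in the table of promoters used here.

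Nr0b2 stood at 15.2, 10.9 and 15.6 RPKM in 56Fe replicates 1 to 3 and at 2.56, 2.82 and 5.20 RPKM in 28Si replicates 1 to 3. The lowest 56Fe library was thus above the highest 28Si library, with means of 13.9 ± 2.60 and 3.53 ± 1.46 RPKM (SD, n = 3). The log2 difference was 1.93 (SE 0.24, adjusted p = 0.00179), a 3.81-fold higher level. Control mice had 12.5, 10.8 and 6.06 RPKM and 16O mice 4.63, 4.70 and 4.11 RPKM, so that controls sat nearer to 56Fe and 16O nearer to 28Si. Cyp7a1 (ENSMUSG00000028240, chromosome 4, 6265612 to 6275633, minus strand) showed the opposite order. It had 18.05, 30.4 and 23.7 RPKM in 56Fe and 66.3, 51.7 and 81.4 RPKM in 28Si. The highest 56Fe library lay below the lowest 28Si library, and the log2 difference was -1.54 (SE 0.29, adjusted p = 0.0242). Control livers were between the ions at 30.7, 44.5 and 43.2 RPKM, and 16O livers spread from 23.3 to 63.2 RPKM. Cyp7a1 missed the threshold without 56Fe replicate 1 or 3 or without any of the 28Si replicates (adjusted p up to 0.103), whereas Nr0b2 passed whichever library was left out (adjusted p up to 0.0182).

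Of 23 tested members of the list of bile acid synthesis and transport, 1 was higher and 1 lower at an adjusted p of at most 0.05, Nr0b2 and Cyp7a1, against 0.791% and 0.382% of all genes tested. Over the list 11 values were higher and 12 lower in 56Fe, with a median of -0.01 that was 0.06 with RPKM as deposited. Nr1h4, the gene of FXR, had a log2 difference of -0.34 (SE 0.10, adjusted p = 0.0958), and Nr5a2, the gene of LRH-1, one of 0.30 (SE 0.10, adjusted p = 0.145). Cyp8b1, the sterol 12-alpha-hydroxylase that sets the mix of bile acids, had 141 RPKM in 56Fe and 142 RPKM in 28Si (log2 difference -0.08, SE 0.18, adjusted p = 0.873). Cyp7b1 of the alternative pathway had -0.26 (SE 0.27, adjusted p = 0.689), and the exporter Abcb11 had -0.12 (SE 0.12, adjusted p = 0.654). Abcc2, an exporter of conjugates, had 120 and 84.6 RPKM and missed the threshold (0.44, SE 0.12, adjusted p = 0.0958).

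**Figure D2:**
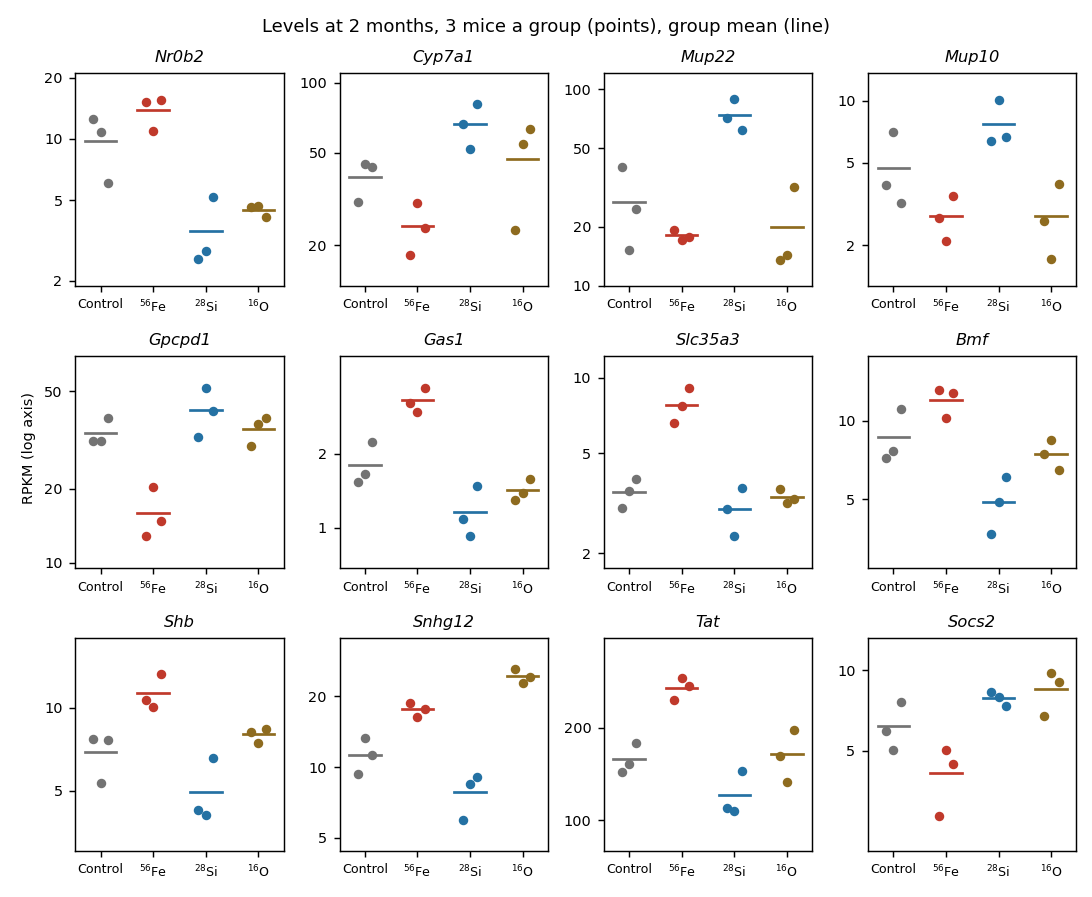
RPKM on a log axis in control, 56Fe, 28Si and 16O livers at 2 months for 12 genes; points are the 3 mice of a group and lines are group means. In all 12 genes the 56Fe and 28Si points do not overlap, as the rule that named these genes required. In Gpcpd1, Slc35a3 and Tat the controls lie nearer to 28Si, and in Nr0b2 and Mup22 nearer to 56Fe.

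Mup22 and Mup10, which encode major urinary proteins, small carriers of pheromones made by the liver, were lower in 56Fe. Mup22 (ENSMUSG00000110439, chromosome 4, 60817589 to 60821463) had 19.2, 17.1 and 17.7 RPKM in 56Fe and 71.2, 89.5 and 61.8 RPKM in 28Si. The 3 values of 56Fe were close together, all far below those of 28Si (log2 difference -2.09, SE 0.31, adjusted p = 0.0071). Control livers (40.1, 15.1 and 24.6 RPKM) and 16O livers (13.5, 14.3 and 31.7 RPKM) were nearer to 56Fe. Mup10 had 2.70, 2.09 and 3.47 RPKM against 6.40, 10.1 and 6.70 RPKM (log2 difference -1.53, SE 0.33, adjusted p = 0.0423), and it missed the threshold whichever of the 6 libraries was left out (adjusted p 0.0504 to 0.162). Mup genes are near-identical copies that can share reads, so which copy a read came from is uncertain. Mup7 (156 and 353 RPKM, -1.22, SE 0.30, adjusted p = 0.0654) and Mup1 (39.9 and 100 RPKM, -1.38, SE 0.46, adjusted p = 0.142) also had lower values in all 3 56Fe mice but did not pass, and the abundant Mup3 had -0.22 (SE 0.23, adjusted p = 0.688).

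Socs2 (ENSMUSG00000020027, chromosome 10, 95385362 to 95417180) was lower in 56Fe, with 2.86, 5.05 and 4.45 RPKM against 8.26, 7.96 and 7.35 RPKM in 28Si. The 28Si mice were within 1 RPKM of each other, and the groups did not overlap (log2 difference -1.02, SE 0.21, adjusted p = 0.0343). Without 56Fe replicate 1 or 3 or 28Si replicate 1 or 2 it did not pass (adjusted p up to 0.131). In the list of male-biased and growth hormone genes, Socs2 was the only one of 25 tested members to pass. Of all genes tested 0.382% were lower. The list had 8 values higher and 17 lower and a median of -0.18. Cish, another inhibitor that growth hormone induces, had -0.55 (SE 0.55, adjusted p = 0.669). Igf1 had 129 and 107 RPKM (0.23, SE 0.15, adjusted p = 0.505), and the growth hormone receptor gene Ghr had 0.09 (SE 0.11, adjusted p = 0.749). Bcl6, a repressor that opposes STAT5, had 1.08 but with a large error (SE 0.47, adjusted p = 0.27).

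Of the mitochondrially encoded messenger RNAs, 3 were higher in 56Fe than in 28Si. The mitochondrial transfer RNA mt-Tl1, which is outside the list and was chosen after its values were seen, was lower (-4.63, SE 0.65, adjusted p = 0.00409). Its mean log2 level over the 6 libraries was only -1.01, so the size of its difference depends on the 0.1 RPKM added before the logarithm. Control and 16O means of mt-Tl1 lay nearer to 56Fe. All 13 protein-coding genes had a higher value (median log2 difference 0.74), and mt-Nd4l, mt-Atp8 and mt-Nd6 passed, against 0.791% of all genes tested. They encode a subunit of complex I, a subunit of ATP synthase and another subunit of complex I. mt-Nd4l (chromosome M, 9877 to 10173) had 748, 893 and 916 RPKM in 56Fe and 300.4, 225 and 222 RPKM in 28Si. Each 56Fe library had more than each 28Si library (log2 difference 1.71, SE 0.21, adjusted p = 0.00179), and the result held without any single library (adjusted p up to 0.0182). Controls had 720, 594 and 584 RPKM and 16O livers 198, 268 and 369 RPKM, so that controls were near 56Fe and 16O near 28Si. mt-Atp8 (7766 to 7969) had 1854, 2077 and 2076 RPKM in 56Fe and 741, 612 and 707 RPKM in 28Si (log2 difference 1.47, SE 0.24, adjusted p = 0.0142). It did not pass without 56Fe replicate 2 or 3 or 28Si replicate 2 (adjusted p up to 0.0726). mt-Nd6 (13552 to 14070, minus strand) had 387, 464 and 408 RPKM against 247, 163 and 169 RPKM (1.07, SE 0.19, adjusted p = 0.0177), and passed only without 28Si replicate 1 among the 6 fits with a library left out (adjusted p up to 0.0836).

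The remaining mitochondrial genes ranged from 0.23 for mt-Co1 (SE 0.33, adjusted p = 0.787) to 1.19 for mt-Atp6 (SE 0.28, adjusted p = 0.0542). mt-Co1, the most abundant, overlapped between the ions, with 11485, 14615 and 12711 RPKM in 56Fe and 13608, 10297 and 8093 RPKM in 28Si. The median over the list was 0.48 without 28Si replicate 3. mt-Atp8 overlaps mt-Atp6 and mt-Nd4l overlaps mt-Nd4 on the same strand, and mt-Nd6 lies antisense to the other coding genes, so their reads cannot be told apart from those of a neighbour or of antisense RNA where the counting does not use strand. Summed over the 13 genes, the level was 41796 to 51344 RPKM in 56Fe, 24203 to 38159 in 28Si, 40380 to 42292 in controls and 15644 to 34933 in 16O. Of 73 tested nuclear genes of oxidative phosphorylation, 40 values were higher and 33 lower (median 0.02). The adjusted threshold was passed by 1, which was higher, as were 0.791% of all genes tested. It was Uqcrq of complex III, with 69.5, 66.2 and 77.8 RPKM against 41.4, 37.1 and 47.8 RPKM (0.69, SE 0.13, adjusted p = 0.0227). Uqcrq did not pass when any single library was left out (adjusted p 0.0508 to 0.103).

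The GTPases Gbp11, Iigp1 and Irgm2, all induced by interferons, were lower in 56Fe. Gbp11 (ENSMUSG00000092021, chromosome 5, 105323042 to 105346472, annotated as a polymorphic pseudogene of the guanylate-binding proteins) had 12.8, 27.1 and 19.3 RPKM in 56Fe and 34.1, 51.7 and 52.9 RPKM in 28Si. Every 56Fe library was below every 28Si library (log2 difference -1.34, SE 0.26, adjusted p = 0.0268). It did not pass without 56Fe replicate 1 or 3 or 28Si replicate 2 or 3 (adjusted p up to 0.116). Iigp1 (chromosome 18, 60376027 to 60392634) encodes an immunity-related GTPase that attacks the vacuoles of parasites. It had 55.2, 57.3 and 59.3 RPKM in 56Fe and 88.0, 90.5 and 112 RPKM in 28Si (-0.82, SE 0.17, adjusted p = 0.0308) and did not pass when any single library was left out (adjusted p 0.0661 to 0.11). Irgm2, a regulator of the same GTPase family that is outside the lists and was chosen after its values were seen, had 5.31, 6.71 and 6.26 RPKM against 9.17, 12.3 and 11.9 RPKM. Its groups did not overlap (-0.92, SE 0.15, adjusted p = 0.0115), and it missed the threshold without 56Fe replicate 1 or 3 or 28Si replicate 2 (adjusted p up to 0.0672).

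The promoter of Irgm2 is shown as an example of the motif through which interferon-activated factors bind, here the core of the interferon-stimulated response element, which is in capitals with the STAT motif TTCNNNGAA (RefSeq, GRCm38.p6, chr11:58214727-58215026, plus strand).

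Irgm2: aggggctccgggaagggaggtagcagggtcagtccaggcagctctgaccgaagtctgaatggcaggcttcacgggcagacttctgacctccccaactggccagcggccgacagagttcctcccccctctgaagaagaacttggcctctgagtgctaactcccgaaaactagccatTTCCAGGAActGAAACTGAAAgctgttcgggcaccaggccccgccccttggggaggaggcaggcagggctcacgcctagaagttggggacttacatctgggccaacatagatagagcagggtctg

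Both motifs lay near the start, GAAACTGAAA at bases -64 to -55 and TTCCAGGAA at bases -75 to -67. Among 32851 promoter windows 3.44% held the response element motif. Of the 36 tested members of the interferon-induced list, 26 had a window, and 14 of those held the motif, among them Gbp7, Igtp, Irgm1 and Ifit1, beside 3.99% of 27025 genes with a window. Gbp11 had no window in the table. The list was made of interferon-induced genes, so its share of matches bears on no difference between the ions, and a match describes letters only.

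Over the interferon-induced list, 30 of 36 tested members had a lower value in 56Fe and 6 a higher one, with a median log2 difference of -0.44, and 15 were lower and 0 higher at an unadjusted p under 0.05, beside 16.6% of all genes in either direction. The adjusted threshold was passed by 1, Iigp1, which was lower, as were 0.382% of all genes tested. Gbp7 (2.89 and 4.65 RPKM, -0.72, SE 0.17, adjusted p = 0.054) and Tap1, a peptide transporter of antigen presentation (4.44 and 5.88 RPKM, -0.47, SE 0.11, adjusted p = 0.0612), had the next smallest p-values. Ifi27 had 50.02 and 67.3 RPKM (-0.50, SE 0.14, adjusted p = 0.0975), and Usp18, which removes ISG15 from proteins, 3.04 and 5.41 RPKM (-0.83, SE 0.28, adjusted p = 0.151). Isg15 itself had 5.58 and 5.31 RPKM (0.01, SE 0.27, adjusted p = 0.993), and Irf7, an inducer of interferon genes, had -0.16 (SE 0.16, adjusted p = 0.665). Most members were at a few RPKM, and with RPKM as deposited, with a pseudocount of 1 RPKM and with no filter on low values the list median was -0.37, -0.30 and -0.37. The summed level was 286 to 332 RPKM in 56Fe, 338 to 428 in 28Si, 306 to 337 in controls and 252 to 375 in 16O.

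**Figure D3:**
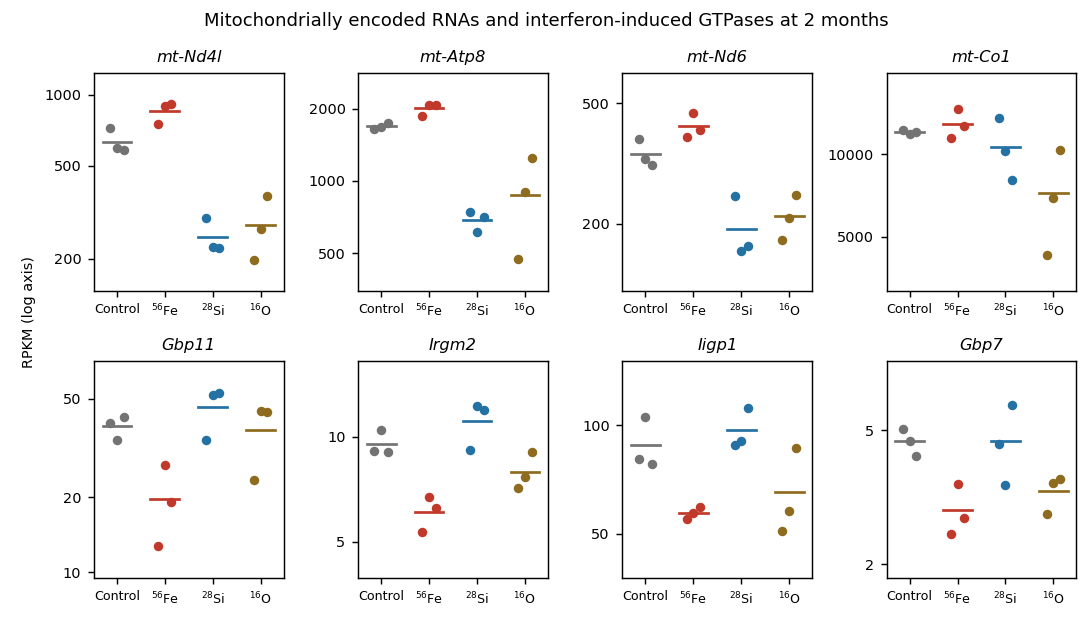
RPKM on a log axis in the 4 groups at 2 months for 4 mitochondrially encoded RNAs (top) and 4 interferon-induced GTPases (bottom); points are the 3 mice of a group and lines are group means. mt-Nd4l, mt-Atp8 and mt-Nd6 separate control and 56Fe from 28Si and 16O, mt-Co1 overlaps between the ions, and the 56Fe points of Gbp11, Irgm2 and Iigp1 lie below those of 28Si.

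Among genes of lipid, sugar and amino acid metabolism, Gpcpd1 had the clearest fall. Gpcpd1 (ENSMUSG00000027346, chromosome 2, 132529082 to 132587729) encodes a phosphodiesterase that splits glycerophosphocholine. It stood at 12.8, 20.4 and 14.7 RPKM in 56Fe and at 32.6, 51.7 and 41.6 RPKM in 28Si, with no overlap (log2 difference -1.46, SE 0.20, adjusted p = 0.00338). Controls (31.3, 31.2 and 38.98 RPKM) and 16O livers (30.003, 36.8 and 38.7 RPKM) were near 28Si, and the result held when any library was left out (adjusted p up to 0.0296). Transcript 6 of Gpcpd1 had 3.38 ± 0.541 RPKM in 56Fe and 20.9 ± 5.51 RPKM in 28Si (SD, n = 3), and the other 12 transcripts together 12.6 ± 4.51 and 21.1 ± 5.70 RPKM.

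Nmrk1, a kinase that turns nicotinamide riboside into a precursor of NAD, was also lower, with 2.09, 4.48 and 3.92 RPKM against 6.75, 9.45 and 10.1 RPKM (-1.42, SE 0.23, adjusted p = 0.0127). Its controls (9.48, 7.95 and 8.11 RPKM) were near 28Si, and it did not pass without 28Si replicate 2 (adjusted p = 0.0633). Cpt1a, which brings long-chain fatty acids into mitochondria, had 59.0, 43.8 and 57.05 RPKM against 66.5, 66.2 and 98.4 RPKM (-0.59, SE 0.11, adjusted p = 0.0186). Without 56Fe replicate 2 or 3 or 28Si replicate 2 or 3 it missed the threshold (adjusted p up to 0.0788). Cpt1a was the only PPARa target of 29 tested to pass, beside 0.382% of all genes tested that were lower. The list had 9 higher and 20 lower values (median -0.06). Gys2, the glycogen synthase of liver, had 49.4, 44.3 and 52.5 RPKM against 56.3, 64.2 and 85.5 RPKM (-0.55, SE 0.11, adjusted p = 0.0296), and passed only without 28Si replicate 1 among the fits with a library left out (adjusted p up to 0.116).

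Tat, which encodes tyrosine aminotransferase, a glucocorticoid-induced enzyme of tyrosine breakdown, was higher in 56Fe. Tat (ENSMUSG00000001670, chromosome 8, 109990437 to 109999803) had 246, 290 and 274 RPKM in 56Fe and 110, 107 and 145 RPKM in 28Si. Each 56Fe mouse was above each mouse of the other 3 groups, since controls had 144, 153 and 179 RPKM and 16O livers 162, 133 and 197 RPKM. The log2 difference was 1.10 (SE 0.14, adjusted p = 0.00179), and it passed without any single library (adjusted p up to 0.0182). Of the gluconeogenesis and glycogen list, 1 of 23 tested members was higher (Tat) and 1 lower (Gys2), against 0.791% and 0.382% of all genes tested. The list had 14 higher and 9 lower values and a median of 0.04. Tsc22d3, another glucocorticoid-induced gene, had 21.4, 22.1 and 28.3 RPKM against 11.3, 8.96 and 20.9 RPKM (0.81, SE 0.20, adjusted p = 0.0594). It was named from the list of clock output genes, where it had the highest value. In that list 0 of 15 tested members passed in limma, with 8 values higher and 7 lower (median 0.13). No list of glucocorticoid-induced genes was examined.

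Fatty acid and triglyceride synthesis genes had 15 higher and 4 lower values of 19 tested in 56Fe (median 0.24). Of these 1 passed and was higher, as were 0.791% of all genes tested. Acly, which makes cytosolic acetyl-CoA from citrate, was the only one to pass, with 57.7, 78.9 and 62.7 RPKM against 39.3, 29.5 and 49.9 RPKM (0.69, SE 0.16, adjusted p = 0.0485), and it did not pass when any single library was left out (adjusted p 0.0678 to 0.181). Acly also missed the threshold in 8 of 13 other alternatives, among them RPKM as deposited, upper-quartile scaling, limma-voom and the fit of 60 libraries. The desaturase gene Scd1 had 729, 1162 and 1068 RPKM against 564, 351 and 559 RPKM (0.94, SE 0.25, adjusted p = 0.0784), and Srebf1, whose product drives this programme, 94.97, 108 and 115 RPKM against 66.9, 56.2 and 89.7 RPKM (0.53, SE 0.13, adjusted p = 0.0594). In cholesterol synthesis 20 of 25 values were higher, and 0 passed in limma, with 2 higher and 1 lower at an unadjusted p under 0.05. Of all genes tested 50.1% were higher, and 16.6% had such a p.

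Gas1, Bmf and Shb, genes of growth control, cell death and receptor signalling, were higher in 56Fe. Gas1 (ENSMUSG00000052957, chromosome 13, 60174405 to 60177365) encodes a membrane protein of growth arrest and hedgehog signalling. It had 3.22, 2.95 and 3.70 RPKM in 56Fe and 1.09, 0.923 and 1.47 RPKM in 28Si, and controls (1.54, 1.65 and 2.23 RPKM) and 16O livers (1.30, 1.38 and 1.57 RPKM) were likewise below every 56Fe library. The log2 difference was 1.38 (SE 0.16, adjusted p = 0.00179). Bmf (chromosome 2, 118528757 to 118549687) encodes a BH3-only protein that promotes apoptosis. It had 13.1, 10.2 and 12.7 RPKM against 3.68, 4.91 and 6.08 RPKM (1.23, SE 0.17, adjusted p = 0.00338). Shb (chromosome 4, 45423278 to 45532470) encodes an adaptor of tyrosine kinase receptors and had 10.7, 10.04 and 13.3 RPKM against 4.26, 4.08 and 6.56 RPKM (1.13, SE 0.13, adjusted p = 0.00179). Gas1, Bmf and Shb each passed without any single library (adjusted p up to 0.0296). In the limma fit of all 60 libraries Gas1 (adjusted p = 0.197) and Bmf (adjusted p = 0.26) did not pass, and Shb did (adjusted p = 0.0446).

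Bbc3, the gene of the BH3-only protein PUMA and a p53 target, had 6.91, 6.27 and 6.43 RPKM against 3.68, 3.61 and 4.47 RPKM (0.66, SE 0.11, adjusted p = 0.0157). It missed the threshold without any of the 56Fe replicates or without 28Si replicate 2 (adjusted p up to 0.0634). It was the only p53 target of 16 tested to pass, beside 0.791% of all genes tested that were higher. The list had 8 values higher and 8 lower (median 0.01). Mdm2, a standard target of p53, had 0.23 (SE 0.16, adjusted p = 0.522). Of the stress lists, 1 of 20 tested heat shock chaperones passed (10 values higher and 10 lower, median -0.0062), 1 of 20 chaperones of endoplasmic reticulum stress (13 and 7, median 0.06) and 1 of 15 genes of the ATF4 amino acid response (9 and 6, median 0.23), all higher in 56Fe, as were 0.791% of all genes tested. Bag3, a co-chaperone of HSP70, had 3.75, 3.28 and 3.55 RPKM against 1.70, 1.79 and 2.44 RPKM (0.75, SE 0.14, adjusted p = 0.0227). Dnajb9, a chaperone of the endoplasmic reticulum, had 15.7, 16.98 and 18.6 RPKM against 9.06, 7.89 and 12.1 RPKM (0.76, SE 0.13, adjusted p = 0.0169). Atf5, a transcription factor of the amino acid stress response, had 38.6, 33.01 and 34.7 RPKM against 20.96, 19.2 and 26.8 RPKM (0.60, SE 0.11, adjusted p = 0.0227). Atf5 did not pass when any single library was left out (adjusted p 0.0504 to 0.1003). Bag3 did not pass without any of the 56Fe replicates or without 28Si replicate 1 or 2 (adjusted p up to 0.0885), nor did Dnajb9 without 56Fe replicate 2 or 3 or 28Si replicate 1 or 2 (adjusted p up to 0.0908).

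Orai1, the pore of a calcium channel opened by emptied stores, had 3.98, 4.92 and 5.32 RPKM in 56Fe and 1.17, 2.36 and 3.03 RPKM in 28Si (1.10, SE 0.22, adjusted p = 0.0276), and missed the threshold without any of the 56Fe replicates (adjusted p up to 0.11). Atoh8, a basic helix-loop-helix factor, had 5.49, 4.00 and 5.78 RPKM against 1.43, 2.49 and 2.32 RPKM (1.20, SE 0.21, adjusted p = 0.0169), and did not pass without 56Fe replicate 1 or 3 or 28Si replicate 1 or 3 (adjusted p up to 0.0867). Klf2, a transcription factor of endothelium, was near the filter at 1.31, 1.39 and 1.04 RPKM against 0.427, 0.273 and 0.787 RPKM (1.21, SE 0.27, adjusted p = 0.0491). Of the fits with a library left out, Klf2 passed only in that without 28Si replicate 3 (adjusted p up to 0.177). It also missed the threshold in 10 of 13 other alternatives. Among these were RLE scaling, upper-quartile scaling, RPKM as deposited, a replicate block and the fit of 60 libraries.

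Eif4ebp3, a repressor of translation that binds eIF4E, was lower in 56Fe, with 1.56, 1.46 and 2.14 RPKM against 5.75, 3.67 and 4.72 RPKM (-1.47, SE 0.30, adjusted p = 0.0308) and did not pass when any single library was left out (adjusted p 0.0525 to 0.109).

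In several of the higher genes the difference lay mainly in a single short transcript. Slc35a3 (ENSMUSG00000027957, chromosome 3, 116669470 to 116712831) encodes the Golgi transporter of UDP-N-acetylglucosamine. Its gene sum was 6.5997, 7.74 and 9.05 RPKM in 56Fe and 2.99, 2.35 and 3.64 RPKM in 28Si (1.29, SE 0.15, adjusted p = 0.00179), and it passed without any single library (adjusted p up to 0.0182). Transcript 7 (ENSMUST00000169530, 657 bases, 116694430 to 116712831) was at 3.68, 5.36 and 6.06 RPKM in the 3 56Fe libraries and was listed at 0 in all 3 28Si libraries. It was listed at 0 in replicates 1 and 2 of the controls and at 0.507 RPKM in replicate 3, and at 0.488, 0.0716 and 0 RPKM in 16O. The other 6 transcripts of Slc35a3 together had 2.77 ± 0.334 RPKM in 56Fe and 2.99 ± 0.644 RPKM in 28Si (SD, n = 3). At the other times transcript 7 was listed at 0 in 41 of 48 libraries, and 56Fe livers had 0.575 to 5.20 RPKM of it at 1 month. With reads summed over transcripts in place of RPKM, a short transcript weighs less, and limma-voom gave Slc35a3 a log2 difference of 0.25 (adjusted p = 0.263).

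Taf10, a subunit of the general transcription factor TFIID, was similar in this respect. Its gene sum was 20.2, 21.6 and 27.6 RPKM in 56Fe and 8.76, 8.08 and 13.02 RPKM in 28Si (1.16, SE 0.19, adjusted p = 0.0115), and it missed the threshold without 56Fe replicate 3 or 28Si replicate 2 (adjusted p up to 0.0753). Transcript 3, annotated as a retained intron of 678 bases (chromosome 7, 105743226 to 105744342), had 15.8, 14.97 and 17.3 RPKM in 56Fe and 0.776, 2.42 and 2.98 RPKM in 28Si. Its controls (6.08, 5.004 and 11.5 RPKM) and 16O livers (4.57, 4.998 and 9.15 RPKM) were between the ions. The other 3 transcripts had 7.11 ± 2.96 RPKM in 56Fe and 7.90 ± 2.19 RPKM in 28Si (SD, n = 3). At 1 month the same transcript had 12.0 to 14.2 RPKM in 56Fe and 0.597 to 2.00 RPKM in 28Si.

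Snhg12, a host gene of small nucleolar RNAs, had 18.8, 16.4 and 17.7 RPKM in 56Fe and 5.94, 8.44 and 9.08 RPKM in 28Si (1.11, SE 0.16, adjusted p = 0.00455; up to 0.0296 without a library). Its transcript 10, of 509 bases, had 15.4 ± 0.708 RPKM in 56Fe and 4.92 ± 0.829 RPKM in 28Si, against 2.23 ± 0.627 and 2.90 ± 0.841 RPKM for the other 9 transcripts together (SD, n = 3). The 16O livers were above 56Fe, with a gene sum of 26.2, 22.8 and 24.3 RPKM. In Bmf and Tat the long coding transcript differed as well as a short one. Bmf transcript 7 (4642 bases) had 5.10 ± 1.07 and 2.64 ± 0.822 RPKM, and transcript 4 (374 bases) 3.22 ± 0.527 and 0.0749 ± 0.13 RPKM in 56Fe and 28Si (SD, n = 3). Tat transcript 1 (2375 bases) had 219 ± 20.2 and 113 ± 22.03 RPKM, and transcript 2 (758 bases) 50.3 ± 11.6 and 7.57 ± 4.16 RPKM (SD, n = 3). Isoforms of a gene share reads, so these levels are as the authors' mapping divided them.

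Of the short RNAs, Rny3 was lower in 56Fe. Rny3 (ENSMUSG00000064945, chromosome 6, 47781624 to 47781725) is a Y RNA, a small RNA bound by the Ro60 protein. It had 3.45, 7.30 and 5.20 RPKM in 56Fe and 12.9, 46.2 and 30.46 RPKM in 28Si, with controls at 7.77, 3.64 and 8.49 RPKM and 16O livers at 9.44, 6.46 and 11.7 RPKM. The 3 28Si libraries were the highest of the 12 and the most spread (log2 difference -2.42, SE 0.40, adjusted p = 0.0142). It missed the threshold without 56Fe replicate 1 or 3 or 28Si replicate 2 (adjusted p up to 0.0726). The 10 genes past both thresholds that the naming rule left out, chosen here after their values were seen, include the mitochondrial transfer RNA mt-Tl1, given above, and CT010467.1, annotated as ribosomal RNA (3.70, SE 0.82, adjusted p = 0.0485). The others were Slc13a2, Ctf1, Gm12718 and Gm32031, which were higher, and Myl12a, E2f8, Gm2788 and Tppp, which were lower.

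Marker lists of cell types held no gene that passed other than Tat, which is also a hepatocyte marker. Of all genes tested 0.791% were higher and 0.382% lower. All 15 hepatocyte markers were tested, and their summed level of 36170 to 38826 RPKM in 56Fe lay within the 28310 to 42641 RPKM of 28Si. Kupffer cell markers had 3 higher and 11 lower values of 14 tested (median -0.14), summing to 96.6 to 110 RPKM in 56Fe and 93.4 to 125 RPKM in 28Si. Sinusoidal endothelial markers had 13 higher and 2 lower of 15 (median 0.13), with sums of 83.2 to 91.4 and 59.4 to 87.3 RPKM, beside the higher Klf2. Red cell markers had 0 higher and 5 lower values (median -0.47), with sums of 40.6 to 66.4 RPKM in 56Fe and 49.2 to 72.2 RPKM in 28Si. The red cell globin Hbb-bt had 1.07, 1.44 and 1.79 RPKM against 5.62, 2.45 and 3.10 RPKM (-1.33, SE 0.33, adjusted p = 0.0649). Lymphocyte markers summed to 18.4 to 21.5 RPKM in 56Fe and 16.7 to 19.2 RPKM in 28Si, neutrophil markers to 0.797 to 1.91 and 1.65 to 3.50 RPKM, and pancreas and adipose markers to 2.20 to 2.89 and 2.51 to 4.44 RPKM. The part of these cells in the differences above was not tested, and in whole tissue fewer cells of a type and less RNA per cell cannot be told apart. The percentage of mapped reads in transcripts was 56.8 to 60.9 in 56Fe and 49.7 to 62.3 in 28Si.

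**Figure D4:**
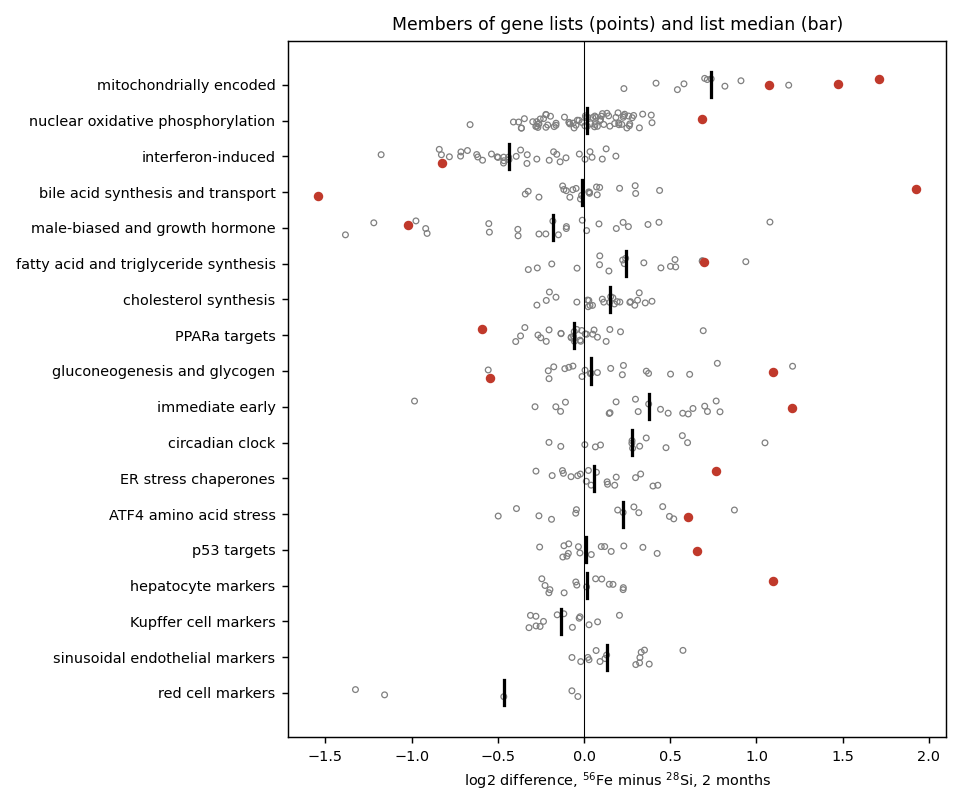
Log2 difference of 56Fe minus 28Si at 2 months on the x axis for the tested members of 18 gene lists (rows); filled red points are members with an adjusted p of at most 0.05, open points all others, and black bars list medians. The 13 mitochondrially encoded genes all lie right of 0 (median 0.74), 30 of 36 interferon-induced genes left of 0 (median -0.44), and the nuclear genes of oxidative phosphorylation centre near 0 (median 0.02).

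Immediate early genes had 16 higher and 5 lower values of 21 (median 0.37). Klf2 was the only one to pass and was higher, as were 0.791% of all genes tested. Junb had 18.02, 26.8 and 18.5 RPKM against 8.07, 14.6 and 15.1 RPKM (0.70, SE 0.20, adjusted p = 0.1004). The core circadian clock had 12 higher and 2 lower values of 14 (median 0.28), and 0 passed in limma, with 5 higher and 0 lower at an unadjusted p under 0.05, beside 16.6% of all genes in either direction. Arntl (BMAL1) had 1.54, 0.724 and 0.814 RPKM against 0.565, 0.507 and 0.194 RPKM (1.05, SE 0.37, adjusted p = 0.168). The ribosomal proteins of the cytosol had 33 higher and 44 lower values of 77 (median -0.03), DNA repair genes 14 and 17 of 31 (median -0.05) and cell cycle genes 7 and 13 of 20 (median -0.19). In limma 0 passed in each. At an unadjusted p under 0.05 there were 6 higher and 12 lower ribosomal, 3 and 2 repair, and 0 and 4 cell cycle genes, beside 16.6% of all genes in either direction. Haem and iron genes had 18 higher and 7 lower values of 25. Tfrc, the transferrin receptor, had 6.34, 7.64 and 9.18 RPKM against 5.14, 2.40 and 4.14 RPKM (0.95, SE 0.24, adjusted p = 0.066). Acute phase genes had 15 higher and 18 lower values of 33, and Steap4, a metalloreductase, had 13.7, 14.9 and 14.3 RPKM against 36.7, 21.3 and 28.9 RPKM (-1.05, SE 0.25, adjusted p = 0.0594). Metallothionein Mt2 had 38.04, 7.42 and 14.9 RPKM against 54.9, 37.1 and 43.3 RPKM (-1.53, SE 0.49, adjusted p = 0.132).

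At the other times, other mice were compared. In a fit of all 60 libraries, Nr0b2 had a log2 difference of -1.72 (SE 0.52, adjusted p = 0.0313) at 1 month. At 2 months it was 1.93 (SE 0.52, adjusted p = 0.0504), then 0.90 at 4, -0.91 at 9 and 0.37 at 12 months. Tat was likewise lower in 56Fe at 1 month (-1.02, SE 0.31, adjusted p = 0.03) and had -0.09, -0.23 and 0.10 at 4, 9 and 12 months. Cyp7a1 did not pass at 2 months in this fit (-1.54, SE 0.86, adjusted p = 0.455). Its values were 0.54, -1.58, -0.38 and 0.16 at 1, 4, 9 and 12 months, and none of these passed. Nmrk1 was higher at 1 month (1.23, SE 0.32, adjusted p = 0.011) and lower at 4 months (-1.39, SE 0.32, adjusted p = 0.0269). Mup22 was lower at 1 month too (-1.44, SE 0.37, adjusted p = 0.00959), and then had -0.86, -0.05 and 0.62. mt-Nd4l was also higher at 1 month (2.14, SE 0.30, adjusted p = 1.32e-05) and had 1.02, 1.04 and 0.55 at 4, 9 and 12 months, which did not pass. Rny3 had -2.23, -2.78 and -3.74 at 1, 4 and 9 months, each with an adjusted p no higher than 0.0107, and 0.09 at 12 months. The spread in this fit is that of all times. A set of 34 genes was followed by name, which had passed at any fold in the fit of 12 libraries. Of these followed genes, 19 did not pass at 2 months in the fit of 60.

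Whether the 2-month difference itself departed from the mean of those at 1, 4, 9 and 12 months was tested for 12731 genes, of which 10 (0.0785%) passed, 3 of them (0.0236%) with a fold of at least 2. Gpcpd1 departed by -1.60 (SE 0.30, adjusted p = 0.0164), with 0.74 at 1 month, -0.52 at 4, -0.18 at 9 and 0.50 at 12 months. Cpt1a departed by -0.80 (SE 0.16, adjusted p = 0.0213), with 0.27, 0.20, 0.19 and 0.16 at the other times. Slc35a3 departed by 1.02 (SE 0.21, adjusted p = 0.0213). It was also higher in 56Fe at 1 month (0.87, adjusted p = 0.00193) and had -0.20, 0.36 and 0.09 at 4, 9 and 12 months. Tsc22d3 departed by 1.08 (SE 0.22, adjusted p = 0.0284). It was lower in 56Fe at 1 month (-0.63, adjusted p = 0.0409) and had -0.28, -0.02 and -0.14 at 4, 9 and 12 months. Its 2-month difference had not passed in the fit of 12 libraries (adjusted p = 0.0594). For Nr0b2 the departure was 2.27 (SE 0.59, adjusted p = 0.0993) and for Tat 1.41 (SE 0.34, adjusted p = 0.0818), which did not pass. With RPKM as deposited 0 genes passed this limma test, with 714 at an unadjusted p under 0.05 in place of 1085, and with limma-voom 1 passed. Leaving out 56Fe replicate 2 gave 2 genes. Leaving out 56Fe replicate 3 or 28Si replicate 2 gave 0, with 888 and 820 genes at an unadjusted p under 0.05.

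**Figure D5:**
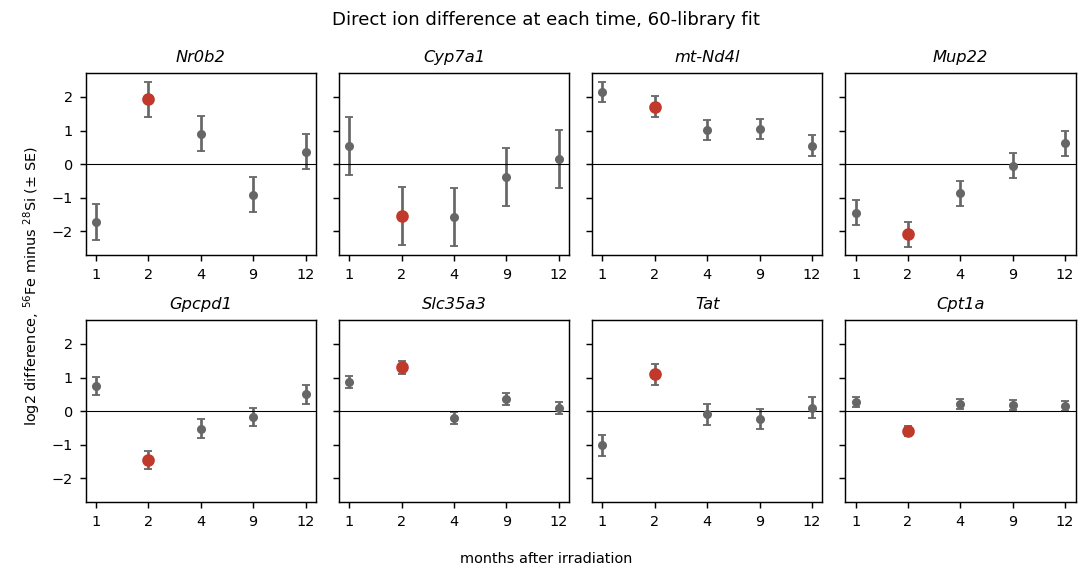
Log2 difference of 56Fe minus 28Si (y axis) at 1, 2, 4, 9 and 12 months (x axis, not to scale) for 8 genes, from the fit of 60 libraries; points are estimates, bars are ± 1 SE, and 2 months is red. Gpcpd1 and Cpt1a lie below 0 at 2 months and near or above 0 at 1, 9 and 12 months, Nr0b2 and Tat change sign between 1 and 2 months, and mt-Nd4l stays above 0.

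Among the 34 genes past both thresholds, the control mean lay nearer to 56Fe in 19 and nearer to 28Si in 15, and the 16O mean nearer to 56Fe in 13 and to 28Si in 21. Both were nearer to 28Si in 11, among them Tat, Gas1, Slc35a3, Taf10, Gpcpd1, Nmrk1 and Gbp11. Both were nearer to 56Fe in 9, among them Mup22, Mup10, Rny3 and Orai1. Nr0b2, the mitochondrial mt-Nd4l, mt-Atp8 and mt-Nd6, and Cyp7a1 had controls nearer to 56Fe and 16O nearer to 28Si. These are descriptions of means with 3 mice each, and no difference of either ion from the controls was tested here.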

How the data were processed

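Per the labels, RNA of the left liver lobe was depleted of ribosomal RNA and sequenced in pairs. The authors deposited RPKM per transcript, made in CLC Genomics Workbench on GRCm38 with Ensembl annotation. Whether counting used strand is not given in the sources used here. The deposited group means were not used, and 0 columns of other samples were present. RPKM of 123811 transcripts were summed to 38204 genes in Python 3.11.15. Positions and lengths came from GENCODE M21, in which 123380 transcripts matched.

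RPKM of 2 months (12 libraries) were scaled by trimmed mean of M values, and a gene was tested if 3 libraries or more reached 0.5 RPKM. The test was limma 3.58.1 (R 4.3.3, mean trend, Benjamini-Hochberg) on log2(RPKM + 0.1). Called genes differed 2-fold or more at an adjusted p no higher than 0.05, and a gene is said to be higher or lower at that adjusted p. A fold on this scale understates changes of low genes. The other times and the test across times used all 60 libraries. Each library is a separate mouse, and p-values measure the spread between these mice.

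Low values were multiples of 1 read (within 0.02 of a read), which gave the depth. RPKM carry no counting interval, so limma-voom on estimated reads served as an alternative. In simulated data for this comparison (11351 genes), 78% of genes changed 2-fold and 96% of those changed 4-fold had an adjusted p of at most 0.05 in limma. No fold threshold was applied there, so recovery at both thresholds was not measured, and 6 unchanged genes also passed. The simulated spread was drawn independently for each gene and library, so it holds no variation that genes of a mouse share.

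Genes were named by a rule: up to 15 called genes per direction whose groups did not overlap, with a mean log2 level of at least 1 and without clone-type names, then members of the gene lists that passed, the up to 3 members with the smallest p of lists with fewer than 2 passing, and defining markers. Irgm2, and the further list members given for context, were chosen after their values were seen. Results for some genes are not reported here. The members and lists were chosen with earlier results of these data known. The alternatives were other scalings, pseudocounts, filters and sets of libraries, a replicate term, voom and leaving out each library.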

Additional observations from a re-analysis of the deposited data

Results flagged for a closer look

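In 4 genes the difference between 56Fe and 28Si at 2 months departed from the mean of the differences at 1, 4, 9 and 12 months, by the contrast across times in limma with adjustment over 12731 genes. Slc35a3 departed by 1.02 (adjusted p = 0.0213), which was 0.19 (adjusted p = 0.931) with limma-voom on estimated reads. Gpcpd1 departed by -1.60 (adjusted p = 0.0164), Cpt1a by -0.80 (adjusted p = 0.0213) and Tsc22d3 by 1.08 (adjusted p = 0.0284), all on the log2 scale. With RPKM as deposited none of the 4 passed. These 4 are those of the 10 passing genes that are described by name.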

How the results depend on the processing

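No gene followed by name changed direction under any alternative run, nor did the departures across times that were followed. The median of the bile acid list, near 0, did change sign with RPKM as deposited. The 34 genes past both thresholds became 22 with a pseudocount of 1 RPKM and 13 to 37 when a library was left out. The 19 higher genes became 11 with a pseudocount of 1 RPKM and 9 to 22 without a library. The 15 lower genes became 24 with the 6 56Fe and 28Si libraries alone and 4 to 18 without a library. The 135 genes at any fold became 55 with RPKM as deposited, 50 with no filter, 268 with the 6 libraries alone, 223 with limma-voom, 261 with the percentage of reads in transcripts as a covariate (chosen after seeing the data), and 17 to 68 without a library. The 10 genes of the test across times became 0 with RPKM as deposited, 1 with limma-voom, 37 with no filter, 150 against 1 month alone, 3 against 4 months alone and 0 to 12 without a library. No filter means more genes tested, and fewer libraries mean fewer samples; the cause of the other changes was not tested. With RPKM as deposited the median of all genes was 0.07, against 0.0003.

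Of the 34 passing genes that were followed, 10 did so whichever library was left out (Nr0b2, mt-Nd4l, Gas1, Slc35a3, Bmf, Shb, Snhg12, Tat, Mup22 and Gpcpd1). Of these 10, Nr0b2, Gas1, Bmf and Tat did not pass in the fit of 60 libraries, nor did Slc35a3 with limma-voom. Of the 34, 19 were lost in the fit of 60 libraries, 16 with no filter and 9 with RPKM as deposited.

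Replicate numbers were not treated as pairs of mice. Deviations of same-numbered 56Fe and 28Si libraries correlated by 0.05, 0.01 and 0.10, which with 3 mice a group cannot exclude a pairing. With a replicate block 36 genes passed both thresholds, 151 passed at any fold and 15 in the test across times, and 2 of 3 56Fe libraries correlated best with their own number.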
